A study of Mus musculus with 8 samples.

Results

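The genes described are fibroblast growth factor (FGF) ligand and receptor genes of the mouse retina, 8 of the 28432 genes in a table of reads per gene. They were chosen by symbol: *Fgf3*, *Fgf8*, *Fgf9* and *Fgf15* encode secreted ligands, *Fgf13* encodes an intracellular FGF homologous factor, and *Fgfr1*, *Fgfr2* and *Fgfr3* encode receptors. RNA was sequenced from E15.5 retinas of 4 control and 4 *Lhx2* CKO embryos, with both retinas of 1 embryo as 1 sample. Control embryos were *Lhx2* flox/+ and CKO embryos *Lhx2* flox/KO. All 8 embryos were heterozygous for Hes1CreERT2, a tamoxifen-dependent Cre recombinase knocked into the *Hes1* locus, and in the study's breeding scheme all carried 1 copy of the Rosa ai14 tdTomato reporter. Dams received tamoxifen by gavage at E11.5, at 0.15 to 0.2 mg per g of body weight. Both genotypes therefore lacked 1 intact copy of *Hes1*, Cre was made in cells that express *Hes1*, mainly retinal progenitor cells (RPCs), and the floxed copy of *Lhx2* was exposed to Cre in controls as well. *Lhx2* itself is a LIM homeodomain transcription factor of RPCs. The comparison addresses which FGF genes depend on *Lhx2* in the retina after the optic cup has formed.

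Secreted FGFs bind receptor tyrosine kinases on the cell surface together with heparan sulfate chains, and the active receptors signal through Ras, Raf, Mek and Erk. Erk activity in turn raises ETS factors such as *Etv4* and *Etv5* and feedback inhibitors such as *Dusp6* and the Sprouty proteins, whose RNA levels are widely used as readouts of the pathway. In the eye, FGFs favour neural retina over pigmented epithelium in the optic cup, help to start neurogenesis near the optic stalk and act on RPC proliferation. The FGF homologous factors share the FGF fold but are not secreted and bind voltage-gated sodium channels.

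Total counts were 13143587 to 15063867 reads in control samples and 13955259 to 19099937 in CKO samples, and the 13891 genes that reached 20 normalized counts in 3 or more samples were tested. Normalized counts are reads divided by a size factor for each sample. A gene passed the test at an edgeR adjusted p below 0.001, and log2FC is CKO over control. *Lhx2* had 3332 ± 265 normalized counts in controls and 2761 ± 143 in CKO samples (SD, n = 4 each), with a log2FC of -0.27 that did not pass (edgeR adjusted p = 0.00502). The deletion removes part of the gene, so counts over the whole gene do not check the labels. *Hes1*, the locus that carries the Cre, fell from 1034 ± 86.7 to 358 ± 37.7 (log2FC -1.53). CKO 1 and control 3 stood apart from their groups on the second principal component (17.6% of the variance), and control 1, control 4 and CKO 1 were female by *Xist* and Y-linked reads. Of 6 RPC markers, 5 fell, against 4.97% lower over all genes tested, and *Pax6* (log2FC 0.13) did not pass. The summed level of the 6 was 66100 to 73279 normalized counts in controls and 33459 to 39028 in CKO samples. Of 7 retinal ganglion cell markers, 5 rose, against 3.64% higher over all genes tested. *Sncg* (log2FC -0.01) and *Nefl* (0.44, edgeR adjusted p = 0.00117) did not pass. Lens markers summed to at most 76.8 and periocular mesenchyme markers to at most 69.4 normalized counts in any sample. The lens markers did not move together. *Foxe3* (0 reads over the controls, 11 over the CKO samples) and *Mip* (2 and 21 reads) were near 0 in both groups but higher in every CKO sample than in any control. *Bfsp2* (42 and 73 reads) and *Crygs* (1 and 3) had more reads in the CKO and *Cryaa* (16 and 6) and *Cryab* (68 and 36) fewer, all with overlapping groups. *Bfsp1*, the only lens marker tested, had a log2FC of -0.03 and did not pass. In bulk retina, fewer cells of a type and less RNA per cell cannot be told apart.

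Promoter sequence was read from RefSeq windows of the GRCm38.p6 assembly, which run from 250 bases before to 50 bases after a transcript start. These windows were found for 5 of the 8 genes, and those of the 3 genes with a window that passed the test are shown, *Fgf3* and *Fgf9* as genes that fell and *Fgfr3* as the gene that rose. The motifs searched, on both strands, were TAATTA (a homeodomain core, in 5.29% of all 32851 windows), GGGTGGTC (a GLI core, 0.807%), CGGAAG (an ETS core, 16.9%), TATAAA (the TATA box, 13.6%), CCAAT (the CCAAT box, 37.4%) and GGGCGG (the GC box, 35.7%), and none of them contains another. Capitals mark a match to any of these on either strand, and all 4 windows lie on the plus strand.
Fgf3, chr7:144838362-144838661: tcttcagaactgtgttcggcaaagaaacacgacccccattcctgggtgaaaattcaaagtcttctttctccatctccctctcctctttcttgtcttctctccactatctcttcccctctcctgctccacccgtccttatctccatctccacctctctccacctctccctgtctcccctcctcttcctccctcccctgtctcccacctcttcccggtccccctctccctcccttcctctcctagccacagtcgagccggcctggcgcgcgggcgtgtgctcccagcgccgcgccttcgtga
Fgf9, chr14:58072436-58072735: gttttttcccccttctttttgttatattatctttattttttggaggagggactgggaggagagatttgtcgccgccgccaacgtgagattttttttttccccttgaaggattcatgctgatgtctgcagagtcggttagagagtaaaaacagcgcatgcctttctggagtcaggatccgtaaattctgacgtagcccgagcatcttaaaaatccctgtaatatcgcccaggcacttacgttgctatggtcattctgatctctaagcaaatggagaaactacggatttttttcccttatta
Fgfr3, chr5:33721474-33721773: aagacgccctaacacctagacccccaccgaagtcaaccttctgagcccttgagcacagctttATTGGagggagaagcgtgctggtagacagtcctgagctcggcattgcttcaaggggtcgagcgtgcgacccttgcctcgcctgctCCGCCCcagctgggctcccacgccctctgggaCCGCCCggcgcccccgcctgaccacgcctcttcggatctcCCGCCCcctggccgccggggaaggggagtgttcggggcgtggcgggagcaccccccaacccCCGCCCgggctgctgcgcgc
Fgfr3, chr5:33722056-33722355: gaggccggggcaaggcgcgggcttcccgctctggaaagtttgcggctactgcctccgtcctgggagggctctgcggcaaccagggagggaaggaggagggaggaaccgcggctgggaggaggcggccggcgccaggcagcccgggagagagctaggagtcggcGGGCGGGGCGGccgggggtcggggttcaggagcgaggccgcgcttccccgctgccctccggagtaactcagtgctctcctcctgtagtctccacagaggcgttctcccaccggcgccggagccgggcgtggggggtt
The windows of *Fgf3* and *Fgf9* held 0 matches. Both lie past the gene starts of the coordinates given below, inside the annotated genes. The bases before those starts were not searched for these 2 genes. The upstream *Fgfr3* window held 1 CCAAT box and 4 GC boxes, and the downstream one 2 GC boxes that share a base. None of the 4 windows held the homeodomain, GLI or ETS letters, which says only that these letters are not in these 300 bases. The *Fgf3* window is a pyrimidine run, with 75.0% C or T against a median of 49.7% over all windows (percentile 99.9). G and C made up 42.7% of the *Fgf9* window (percentile 15.6) and 69.7% and 73.0% of the *Fgfr3* windows (percentiles 89.9 and 94.3), against a median of 52.7%.

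All 8 genes were tested. *Fgf3*, *Fgf8*, *Fgf9* and *Fgf15* fell, *Fgfr3* rose, and *Fgf13*, *Fgfr1* and *Fgfr2* did not pass the test. Over all genes tested, 8.61% passed, 4.97% lower and 3.64% higher in the CKO. The 4 control values and the 4 CKO values did not overlap for 6 of the 8 genes, against 33.8% of all genes tested. *Fgf8* is among these 6 but was tested through the controls alone. Its fall and its lack of overlap are therefore given only as a description. The median log2FC over all genes was 0.0053. The plot of values by sample shows the ligands separated by wide gaps, *Fgfr3* separated in the other direction, and *Fgf13* and *Fgfr2* overlapping.

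**Figure D1:**
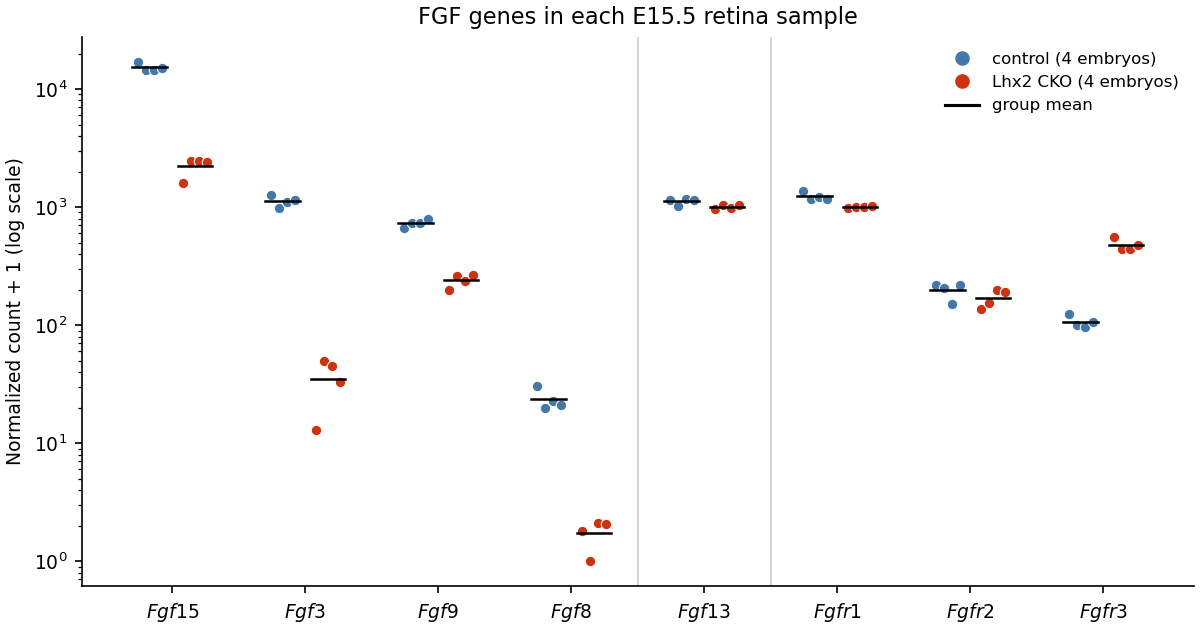
Normalized count plus 1 (log axis) of each FGF gene in every sample, with blue points for the 4 control embryos, red points for the 4 CKO embryos and a black line at each group mean. Vertical lines separate secreted ligands, *Fgf13* and receptors. *Fgf3* drops from a mean of 1121 to 34.2 and *Fgfr3* climbs from 106 to 479.

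*Fgf15*, the mouse counterpart of human FGF19 and a gene of proliferating RPCs, had by far the most reads of the 8. Its normalized counts were 17039.5, 14427, 14439.9 and 15201 in control samples 1 to 4 and 1613, 2468, 2446 and 2421 in CKO samples 1 to 4. Every CKO sample lay far under every control, and CKO 1 lay under the other 3, which were close to each other. *Fgf15* fell 6.83-fold (95% interval 5.65 to 8.26), from 15277 ± 1229 to 2237 ± 416 (SD, n = 4 each; log2FC -2.77, SE 0.12, edgeR adjusted p = 1.19e-07), and stood 11th by p among all genes tested. The gene lies at chr7:144896531-144900953 on the plus strand, and 761 of its exonic bases also belong to the antisense gene *Gm26793*, whose reads an unstranded library cannot keep apart. *Gm26793* had 184 ± 27.6 and 86.6 ± 10.5 normalized counts, so its reads were few beside those of *Fgf15*.

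*Fgf3*, a ligand of the optic cup and stalk region, had the largest fold change of the 8 in the fit. It had 1263, 981, 1096 and 1146 normalized counts in controls 1 to 4 and 11.9, 49.1, 43.8 and 32.0 in CKO samples 1 to 4. The controls were tightly grouped, while the CKO samples differed among themselves most between CKO 1 and CKO 2. *Fgf3* fell 33.4-fold (95% interval 23.5 to 47.2), from 1121 ± 117 to 34.2 ± 16.5 (log2FC -5.06, SE 0.23, edgeR adjusted p = 1.19e-07), 12th by p. It lies at chr7:144838083-144844436 on the plus strand and shares no exonic base with another annotated gene.

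*Fgf9*, a ligand of the neural retina that marks its side of the boundary with the pigmented epithelium, was reduced less. Its normalized counts were 669, 727, 739 and 789.8 in controls and 197, 262, 236 and 267 in CKO samples. The highest CKO sample was well under the lowest control, and CKO 1 was again the lowest. *Fgf9* fell 3.04-fold (95% interval 2.64 to 3.51), from 731 ± 49.8 to 240.5 ± 31.9 (log2FC -1.61, SE 0.095, edgeR adjusted p = 6.95e-07). The gene lies at chr14:58070547-58112720 on the plus strand.

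*Fgf8*, the ligand of the optic stalk and of several signalling centres of the brain, was close to the limit of detection. The reads were 29, 18, 19 and 20 in controls and 1, 0, 1 and 1 in CKO samples. It was tested through the controls alone, since no CKO sample reached 20 normalized counts, and its call is given as a description for that reason. The 86 control and 3 CKO reads, set against the group totals, gave a ratio of 32.6 (exact binomial 95% interval 10.8 to 161, counting error only). The fitted log2FC was -4.77 (SE 0.48, edgeR adjusted p = 2.98e-05) and depends on the prior count of the fit. *Fgf8* lies at chr19:45736798-45742915 on the minus strand. It was also 1 of the 4 genes of the optic stalk marker list, so that list is not separate from *Fgf8*. The 2 that fell were *Fgf8* itself and *Pax2* (log2FC -1.72), while *Vax1* (-1.14) and *Vax2* (-0.20) did not pass. The summed levels were 729 to 1057 normalized counts in controls and 659 to 794 in CKO samples. Most of each sum came from *Vax2*, with means of 796 and 691.

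Some markers of other parts of the eye changed beside the ligands. Of 5 ciliary margin markers 3 fell, *Msx1*, *Cdon* and *Gas1*, against 4.97% lower over all genes tested. The sums of this list were 3032 to 5070 in controls and 1692 to 2260 in CKO samples. Most of each sum came from *Cdon*, with means of 2997 and 1585, while *Otx1* (log2FC -1.53) and *Wls* (0.56) did not pass. Of 4 tested pigmented epithelium markers 1 fell, *Pmel* (log2FC -1.75), against 4.97% lower over all genes tested. *Dct* (-2.05, edgeR adjusted p = 0.00125), *Tyrp1* (-1.52, 0.0017) and *Tyr* (-0.92, 0.0285) did not pass. All 4 were lower in every CKO sample than in any control, and 33.8% of all genes tested did not overlap. The sums of this list were 228 to 376 in controls and 75.8 to 107 in CKO samples. The 5 endothelial markers did not move together: *Kdr*, which made up most of their sum, fell from 4104 ± 142 to 2931 ± 305 normalized counts and *Cldn5* fell as well (log2FC -1.55), while *Cdh5*, *Pecam1* and *Tie1* had log2FC of 0.09, 0.05 and 0.07 and did not pass. The part of these cells, and of the RPC markers above, in the ligand changes was not tested.

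*Fgf13*, the FGF homologous factor of the set and an X-linked gene, had 1156, 1023, 1180.5 and 1144 normalized counts in controls and 956, 1042, 988 and 1031 in CKO samples. The ranges overlapped, since control 2 lay under CKO 2 and CKO 4. The means were 1126 ± 70.4 and 1004 ± 39.4, with a log2FC of -0.16 (95% interval -0.28 to -0.04, edgeR adjusted p = 0.0402), which did not pass.

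*Fgfr3*, a receptor tyrosine kinase, was the only one of the 8 genes to rise. Its normalized counts were 124, 98.9, 95.9 and 104 in controls and 558, 442, 439 and 476 in CKO samples. The lowest CKO sample stood far above the highest control. *Fgfr3* rose 4.53-fold (95% interval 3.80 to 5.39), from 106 ± 12.6 to 479 ± 55.4 (SD, n = 4 each; log2FC 2.18, SE 0.11, edgeR adjusted p = 3.27e-07), 24th by p. It lies at chr5:33721674-33737068 on the plus strand, and 998 of its exonic bases overlap *G630022F23Rik* on the other strand. No gene of that symbol was in the table of reads, and reads of the 2 strands could not be separated in those bases.

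*Fgfr1*, the receptor with the most reads, had 1372, 1168, 1210.2 and 1181 normalized counts in controls and 989, 1000.2, 1004 and 1018 in CKO samples. Every CKO sample lay under every control, by a narrow margin. The means were 1233 ± 94.6 and 1003 ± 12.0, and the log2FC of -0.30 (95% interval -0.42 to -0.17) had an edgeR adjusted p of 0.00249, outside the cutoff. DESeq2 on the same counts passed it (adjusted p = 1.74e-04).

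*Fgfr2* had 217, 205, 149.6 and 219 normalized counts in controls and 137, 153, 197 and 189 in CKO samples. Control 3 lay among the CKO values, and the groups overlapped. The log2FC was -0.24 (95% interval -0.56 to 0.09, edgeR adjusted p = 0.246), an interval that holds both no change and a 1.47-fold reduction. CKO 1 was the lowest CKO sample for *Fgf3*, *Fgf9*, *Fgf15*, *Fgf13*, *Fgfr1* and *Fgfr2* and the highest for *Fgfr3*. The fit without CKO 1 or without any other sample left every gene of the set other than *Fgf8* on its side of the threshold and of 0, as the plot of fitted changes shows. *Fgf8* had too few samples over the minimum to be tested in some of these fits.

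**Figure D2:**
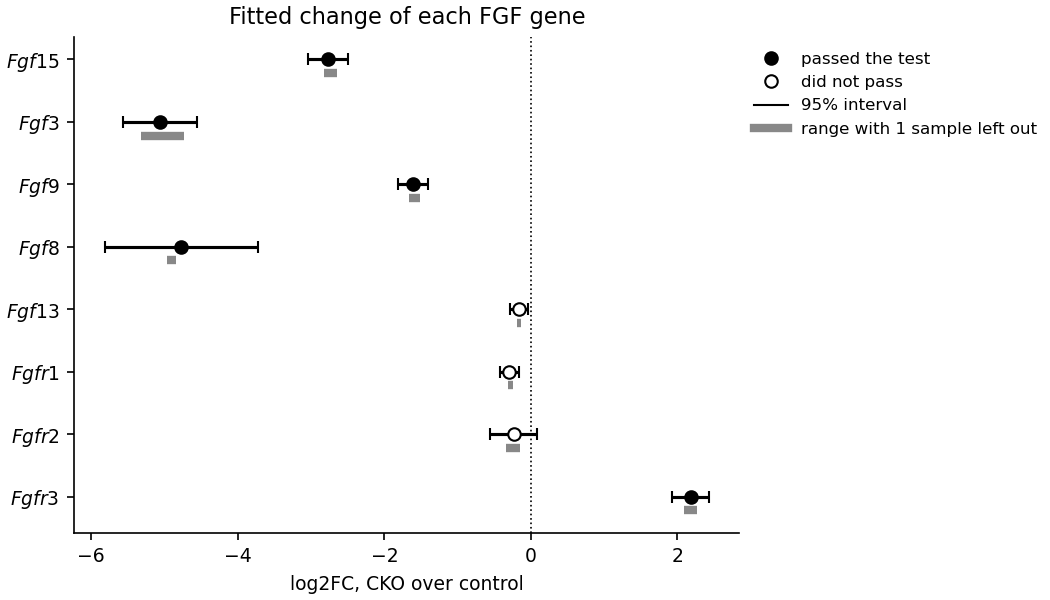
Fitted log2FC (CKO over control) of each FGF gene with its 95% interval. Filled points passed the test, open points did not, and grey bars give the range over fits that each leave out 1 sample. *Fgf3* at -5.06 and *Fgfr3* at 2.18 mark the ends, and the bars of all 8 genes stay on 1 side of 0. The *Fgf8* bar covers only the fits without control 2, CKO 3 or CKO 4, and *Fgf8* was tested through the controls alone.

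Levels of different genes were compared as normalized counts per kb of annotated exon. In controls the order was *Fgf15* (4996 per kb), *Fgf3* (482), *Fgf13* (280.1), *Fgf9* (157) and *Fgfr1* (125), with no overlap between neighbours, followed by *Fgfr2* (19.1), *Fgf8* (16.6) and *Fgfr3* (14.8), whose ranges overlapped. In CKO samples it was *Fgf15* (732 per kb), *Fgf13* (249.9), *Fgfr1* (102), *Fgfr3* (66.9) and *Fgf9* (51.7), again without overlap, then *Fgfr2* (16.4) and *Fgf3* (14.7), which overlapped, and *Fgf8* (0.547). *Fgf3* thus went from place 2 to place 7 in level and *Fgfr3* from place 8 to place 4. Per kb of the longest transcript in place of all exons, *Fgfr1* stood above *Fgf9* in controls (245 against 203), *Fgf3* and *Fgf13* overlapped, and *Fgfr3* (24.9) stood above *Fgf8* (19.2) with overlapping ranges. The annotated exons of *Fgfr2* sum to 10328 bases against 4429 in its longest transcript and share 314 bases with *Ctbp2*, so its level per kb was 44.6 in controls on the second scale.

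The share of each receptor gene in the summed level per kb of *Fgfr1*, *Fgfr2*, *Fgfr3* and *Fgfr4* does not depend on scaling between samples. The *Fgfr3* share was 9.20%, 8.61%, 8.11% and 8.32% in controls and 39.4%, 32.5%, 31.8% and 34.3% in CKO samples, a mean of 8.56 ± 0.472% against 34.5 ± 3.43%. The *Fgfr1* share was 72.5 ± 2.81% in controls and 52.5 ± 1.25% in CKO samples. Neither pair of groups overlapped, and both differences had an exact two-sided permutation p of 0.0286, the smallest that 70 arrangements of 4 against 4 allow (0.0571 adjusted over the 4 receptor shares, which does not reach 0.05). The *Fgfr2* share was 11.1% and 8.47% and the *Fgfr4* share 7.82% and 4.47% (adjusted exact p of 0.114 and 0.143). The summed receptor level was 172 ± 12.2 per kb in controls and 193 ± 3.22 in CKO samples (exact permutation p = 0.0286, the same smallest value).

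Among the 16 secreted ligand genes in the table, *Fgf15* held 87.9 ± 0.456% of the summed level per kb in controls and 88.4 ± 0.765% in CKO samples, a difference of 0.52 points that did not pass (adjusted exact permutation p = 0.286). The summed ligand level itself was 6.87-fold lower in the CKO, at 5686 ± 447 per kb in controls and 827 ± 150.1 in CKO samples (exact permutation p = 0.0286). Beside *Fgf15*, the ligand with the second largest share changed from *Fgf3* to *Fgf9*. The *Fgf3* share went from 8.47% to 1.70%, while the *Fgf9* share rose from 2.78% to 6.32%, although the *Fgf9* level fell (adjusted exact permutation p = 0.0381 for both). The *Fgf8* share, 0.291% and 0.0691%, rests on 3 CKO reads, and its test result is not used here. It was still 1 of the 4 shares over which these p were adjusted, so the adjusted values for *Fgf3* and *Fgf9* depend on it. Unadjusted, the exact permutation p was 0.0286 for *Fgf3* and for *Fgf9*, the smallest that the design allows. The direction for *Fgf15* depended on gene length, since without division by length its share was 2.09 points lower in the CKO, a difference that passed 0.05 (adjusted exact permutation p = 0.0286).

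**Figure D3:**
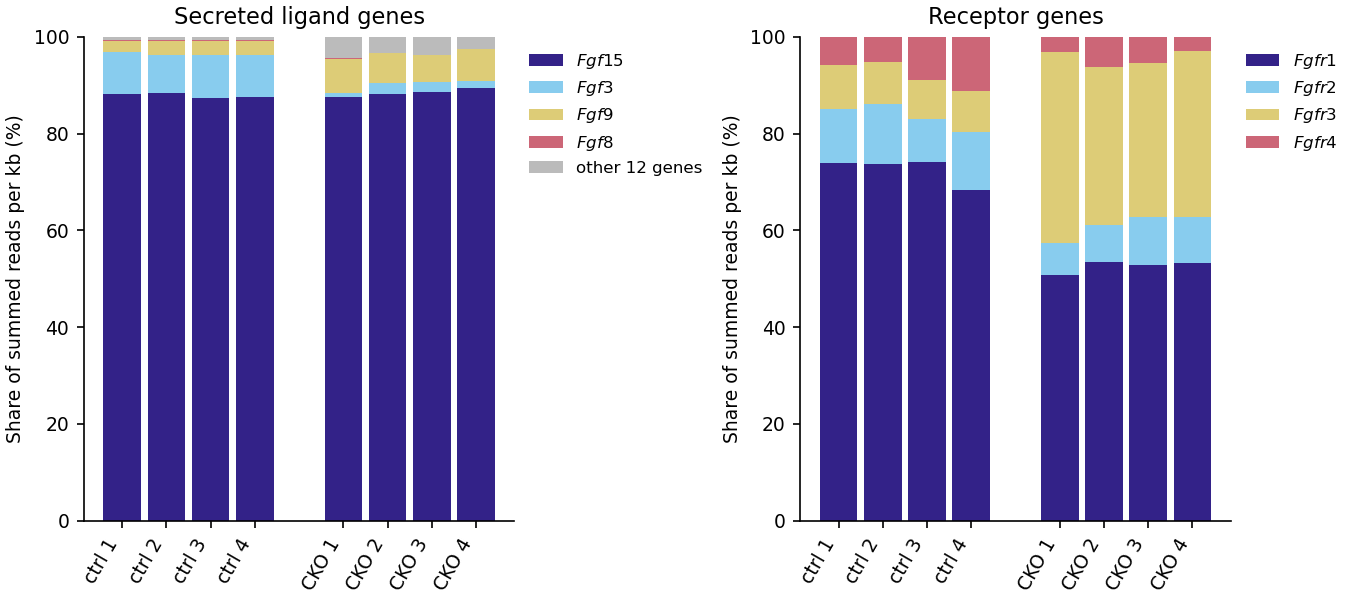
Share (%) of each gene in the summed normalized counts per kb of exon, for the 16 secreted ligand genes (left) and the 4 receptor genes (right), with 1 stacked bar for each control (ctrl) and CKO sample. *Fgf15* stays near 88% of the ligand sum in all 8 samples, and the *Fgfr3* share is 8.11% to 9.20% in controls and 31.8% to 39.4% in CKO samples.

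*Fgf3* and *Fgf15* lie close together on chromosome 7, with 58.4 kb between their starts and *Fgf4* between them. *Fgf4*, a ligand of the early embryo, had 22 reads over the 4 controls and 0 over the 4 CKO samples, and it was below the minimum for testing. With a floor of 3 reads put in for the CKO group, the ratio was 8.34. That ratio leaves out the counting error of the 22 control reads and is not a lower bound. Of the other genes within 500 kb of either gene, 9 were tested. Of these, 3 passed, all lower, against 4.97% lower over all genes tested, and the median of the 9 log2FC was -0.33. Those that fell were *Ano1*, a calcium-activated chloride channel (log2FC -1.33, edgeR adjusted p = 1.18e-06), the antisense gene *Gm26793* (-1.09, 1.36e-04) and *Ccnd1*, the cyclin D1 of RPCs (-1.17, 3.15e-06). Because 761 exonic bases of *Gm26793* also belong to *Fgf15*, the part of *Fgf15* reads in its fall was not tested. *Ccnd1* went from 45274 ± 3304 to 20135 ± 2380.1 normalized counts. *Oraov1*, whose start lies between those of *Fgf15* and *Ccnd1*, had a log2FC of -0.03 (adjusted p = 0.746) and shares 1100 exonic bases with *Ccnd1* on the other strand. The remaining protein-coding genes did not pass: *Fadd* (-0.52), *Tpcn2* (-0.33), *Ppfia1* (-0.09), *Cttn* (0.08) and *Shank2* (0.29). Position was not used to choose the genes, and *Ccnd1* was also 1 of the RPC markers.

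**Figure D4:**
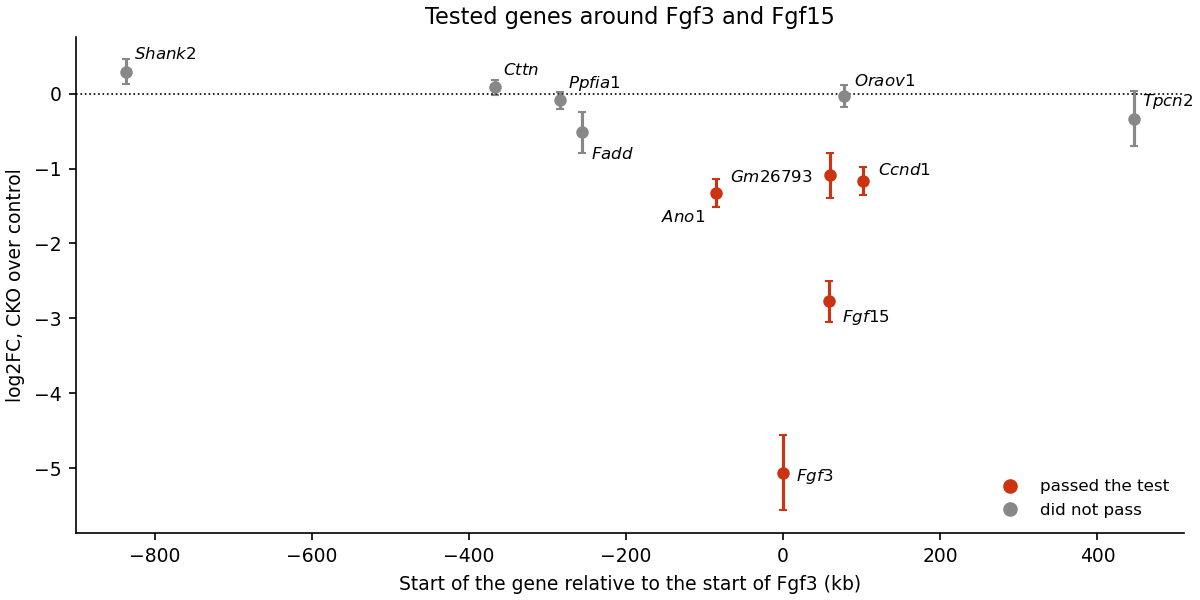
Log2FC (CKO over control) with its 95% interval for the tested genes around *Fgf3* and *Fgf15*, against the distance of each gene's start from the start of *Fgf3* in kb. Red points passed the test and grey points did not. *Fgf3*, *Fgf15*, *Ano1*, *Gm26793* and *Ccnd1* lie below 0, and *Oraov1* in their midst lies at -0.03.

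The rest of the pathway was read from 6 lists of 65 genes by role, of which 63 were in the table and 50 were tested. Of these 50, 8 fell, 2 rose and 40 did not pass, against 4.97% lower and 3.64% higher over all genes tested. The median log2FC was 0.0064, and 0.0053 over all genes tested. Most of the 8 falls were in a single group, the feedback genes and transcriptional targets of Erk. In it, 6 of 12 fell and the other 6 did not pass (median log2FC -0.67). By DESeq2, 9 of the 12 fell, and of all 13891 genes tested 2390 passed, 51.5% of them lower.

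In that group the ETS factor *Etv4* fell from 209 ± 45.3 to 25.0 ± 3.07 normalized counts (log2FC -3.06, edgeR adjusted p = 6.95e-07). *Etv5* had 2373 ± 132 in controls and 664 ± 106 in CKO samples (log2FC -1.84, adjusted p = 3.14e-07). *Dusp6*, the Erk phosphatase, had 1039, 953, 1069 and 1028 normalized counts in controls and 233, 290.3, 276 and 298 in CKO samples. Its groups stood far apart, and at a log2FC of -1.90 it ranked 8th by p of all genes tested (adjusted p = 5.13e-08). The Sprouty genes *Spry4* (-1.68) and *Spry2* (-1.03) and *Il17rd*, the membrane inhibitor known as Sef (-0.78, adjusted p = 2.21e-04), also fell. The call for *Il17rd* was lost in the fits without control 1, control 2, control 4, CKO 2 or CKO 4, with adjusted p up to 0.00122. *Spred1*, the member with the highest mean level, had 2482 ± 111 and 2052 ± 169.5 normalized counts (log2FC -0.27) and did not pass.

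The 19 genes of the intracellular route from receptor to Erk (adaptors, Ras proteins and kinases) gave 0 calls by edgeR, against 8.61% of all genes tested. Their log2FC lay between -0.32 and 0.23, with a median of 0.05. At an unadjusted p below 0.05, 3 of the 19 were lower and 3 higher. These counts were not above those of all genes, since 4619 of 13891 passed even an adjusted p below 0.05. Limma voom called 0 of the 19, and DESeq2 called 1, the adaptor gene *Gab1* (log2FC -0.31, adjusted p = 3.78e-05).

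Outside the cell, 1 of 12 tested genes of heparan sulfate and FGF binding fell and 1 rose, against 4.97% and 3.64% of all genes tested. By DESeq2, 1 of the 12 was lower and 3 were higher, where 2390 of all 13891 genes passed. At an unadjusted p below 0.05 by edgeR, 2 were lower and 6 higher, and 4619 of 13891 passed even an adjusted p below 0.05. *Sulf1*, a sulfatase that trims heparan sulfate, fell from 160.3 ± 20.3 to 58.8 ± 7.97 normalized counts (log2FC -1.44, edgeR adjusted p = 1.92e-05). Its relative *Sulf2*, the list's most abundant gene, had 3759 ± 409 and 3319 ± 448 (log2FC -0.18, adjusted p = 0.185) and did not pass. *Fgfbp3*, a secreted FGF carrier, rose from 317 ± 54.1 to 511 ± 41.1 (log2FC 0.69, adjusted p = 7.65e-04).

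Of the other receptor genes, *Fgfrl1*, a receptor without a kinase domain, fell from 489 ± 27.7 to 307 ± 35.6 (log2FC -0.67, edgeR adjusted p = 1.80e-04), and *Fgfr4* had 47.7 ± 17.4 and 30.5 ± 10.9 (log2FC -0.64, adjusted p = 0.127) and did not pass. Of the 12 other secreted ligand genes in the table, 2 reached the minimum for testing and neither passed, *Fgf2* (log2FC 0.01) and *Fgf18* (-0.36). Among the other FGF homologous factors, *Fgf11* rose (log2FC 0.54, adjusted p = 8.14e-04), whereas *Fgf12* (0.18) and *Fgf14* (-0.48) did not pass. The calls for *Fgf11* and *Fgfbp3* held in the fit without control 3 and were lost when any other single sample was left out, with adjusted p up to 0.0038. Both calls were also lost with 1 surrogate variable (0.00134 and 0.00123) and with embryo sex as a covariate (0.00139 and 0.00128). That of *Fgf11* was lost as well with library totals (0.00125) and with a block for the replicate number (0.00449).

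**Figure D5:**
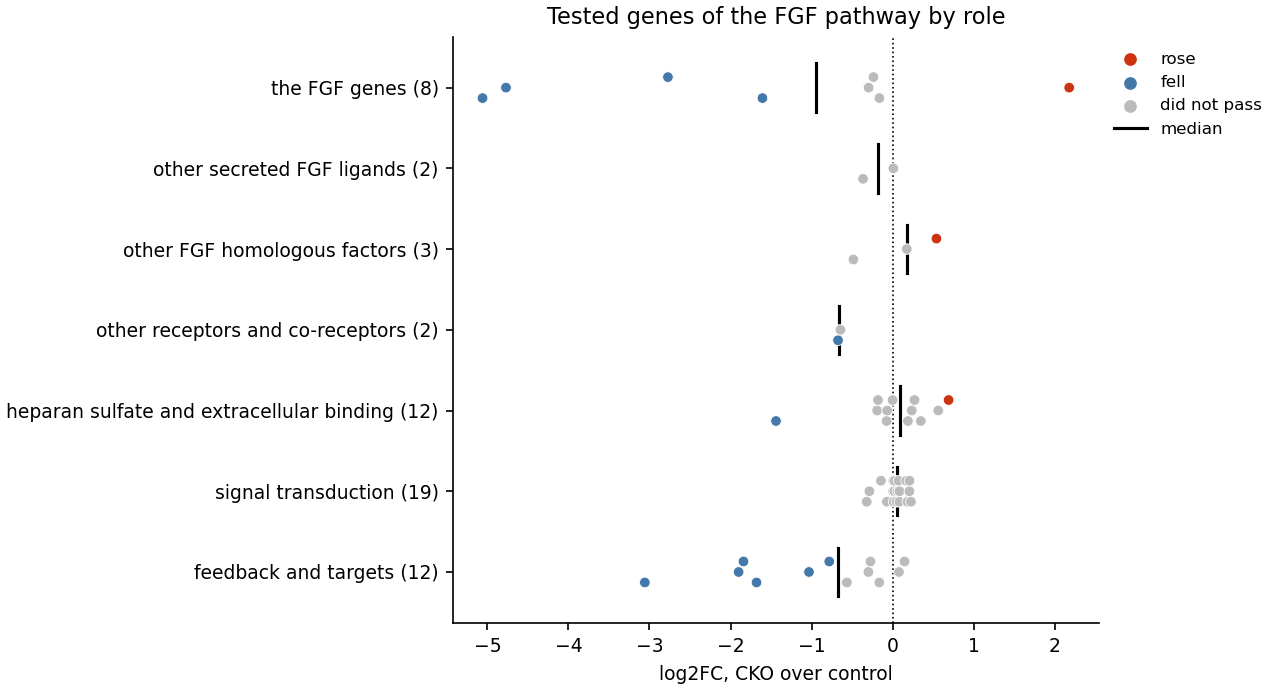
Log2FC (CKO over control) of the 8 FGF genes (top row) and of the tested genes of 6 role lists, with the number tested in parentheses. Blue points fell, red points rose, grey points did not pass, and a black line marks each median. Points in the feedback and target row reach -3.06, while the 19 signal transduction genes lie between -0.32 and 0.23.

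The genes most like each FGF gene over the 8 samples were found by the root mean square (RMS) difference of log2 normalized counts, each gene set relative to its control mean, among the 12152 genes whose mean reached 50 normalized counts. Since the genotypes differ strongly for some of the 8, likeness mainly reads the size of that difference. For *Fgf15*, *Etv4* was the second closest (RMS 0.30). For *Fgf3* they were *Dapl1* (0.44) and *Aldh1a3*, a retinoic acid synthesis enzyme (0.50), and for *Fgf9* *Vstm4* and *Tnfaip6* (0.11 each). For *Fgf8* they were *Col9a1*, a collagen of the peripheral retina (0.43), and *Crhbp* (0.65). *Fgf8* had 1, 0, 1 and 1 reads in CKO samples 1 to 4, where its log2 value is set mainly by the pseudocount of 1. Its closest genes are therefore given only as a description. *Aldh1a3* fell from 1974 ± 164 to 62.6 ± 43.1 normalized counts. *Fgfr3* was closest to *Dmrta2* (0.16) and *Vit* (0.17), which both rose, with log2FC of 2.12 and 2.39. The closest genes of *Fgf13* (*Sap18* and *Stard7*), *Fgfr1* (*Tcf3* and *Phactr4*) and *Fgfr2* (*Elk3* and *Sulf2*) did not pass the test either.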

How the data were processed

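Per the labels and the study's methods, poly(A) RNA from both retinas of each embryo was sequenced in 50-cycle single-end reads on a HiSeq 2000 with a kit that does not record strand. The authors aligned reads to mm10 with TopHat2 and deposited raw HTSeq counts per gene, which are the values used here. The submitters' processing notes also name Cufflinks. Not given in the sources used here were tool versions, the strand setting, the annotation, and the litter and day of each sample (3 litters, 2 days). Coordinates and exon lengths are from GENCODE M21 (GRCm38), which held 28232 of the gene IDs.

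Genes that reached 20 normalized counts in 3 or more samples, the study's filter, were tested with the quasi-likelihood test of edgeR 4.0.16 in R 4.3.3 (TMM scaling, genotype as the only term), with Benjamini-Hochberg adjustment over all genes tested and a cutoff of 0.001. The script was tested on simulated data. Counts were normalized by size factors from the median of ratios. Shares were compared by exact permutation tests. The 6 role lists and the marker lists came from general knowledge. The genes and lists were chosen with earlier results of these data known. The text names all 8 genes, the called genes and the most abundant gene of each role list, the tested protein-coding genes around *Fgf3* and *Fgf15*, the 2 genes most like each of the 8, *Lhx2* and *Hes1*, and 2 genes that this rule takes are not reported here. *Gm26793*, *Fgf4*, *Fgf14*, *Fgf18*, *Fgfr4*, *Gab1*, *Flrt2* and *Ctbp2* were added after their values were seen. So were the named markers of lens, pigmented epithelium, endothelium, ciliary margin and optic stalk other than *Fgf8*, and the markers *Pax6*, *Sncg* and *Nefl*. *G630022F23Rik* is named only for its overlap. Alternatives were DESeq2 1.42.0, limma 3.58.1 voom, other scalings and filters, a cutoff of 0.05, a block for the replicate number, embryo sex, 1 surrogate variable (sva 3.50.0) and leaving out each sample.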

Additional observations from a re-analysis of the deposited data

Results flagged for a closer look

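Of 52 groups of 4 values that were checked (the 8 genes, the called pathway genes and the shares), 8 held a sample whose gap to the nearest other value was large beside the range of its group, and chance marks about 1 in 20 groups. In CKO 1, *Fgf15* had 1613 normalized counts against 2421 to 2468 in the other CKO samples, *Fgfrl1* had 254 against 317 to 329, and *Spry2* had 275 against 326 to 335. *Fgfrl1* was also high in control 1, at 531 normalized counts against 474 to 477. The *Fgfr1* share of the receptor sum was 68.3% in control 4 against 73.7% to 74.2% in the other controls. Of the ligand sum, *Fgf3* held 7.89% in control 2 against 8.59% to 8.72%, *Fgf9* held 2.28% in control 1 against 2.93% to 2.99%, and *Fgf8* held 0% in CKO 2, where it had 0 reads, against 0.0892% to 0.0976%. CKO 1 was the deepest library and the only female CKO sample, and the part of depth or sex in its values was not tested.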

How the results depend on the processing

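Every gene of the set other than *Fgf8* kept its direction under all 18 alternatives, and the calls for *Fgf3*, *Fgf9*, *Fgf15* and *Fgfr3* held in each. Their log2FC ranged from -5.32 to -4.74, -1.66 to -1.52, -2.82 to -2.65 and 2.09 to 2.27. *Fgf8* reached the minimum for testing in 13. *Fgfr1* passed by DESeq2 (log2FC -0.289), without a filter (-0.299) and at a cutoff of 0.05 (-0.296), and *Fgf13* passed at 0.05 (-0.163). The count of genes called, 1196, became 2390 by DESeq2, 2055 without a filter, 4619 at 0.05 and 686 to 1553 with 1 sample left out (713 without control 1, 756 without control 2, 748 without control 4, 735 without CKO 2 and 686 without CKO 4). Of the 50 pathway genes, 8 lower and 2 higher became 15 and 7 at 0.05, and the 2 higher became 4 by DESeq2, 1 with library totals, 1 with the surrogate variable, 1 with sex as a covariate (in both of the last, *Flrt2* in place of *Fgf11* and *Fgfbp3*) and 0 to 3 with 1 sample left out.

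Replicate numbers did not pair the samples (correlations of same-numbered deviations 0.142, -0.154, 0.0633 and -0.116). With the replicate block 676 genes were called, 6 pathway genes were lower (*Fgfrl1* and *Il17rd* no longer passed) and 1 was higher (*Fgf11* no longer passed). No call among the 8 genes changed.

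Without control 3, the receptor shares reached an adjusted exact permutation p of 0.0381 for *Fgfr1* (-19.4 points), *Fgfr2* (-3.42) and *Fgfr3* (25.8), over ranges with 1 sample left out of -21.4 to -19.4, -3.42 to -2.05 and 24.3 to 26.9 points. The *Fgf15* share of the ligands turned to -0.34 points per kb of longest transcript and -2.09 without division by length (adjusted exact permutation p of 0.343 and 0.0286). For these reversals, and for the moved counts under DESeq2 and the added covariates, the cause was not tested. Depth limited *Fgf8* and *Fgf4*, and 4 embryos per genotype limited the permutation tests.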
